A study of Mus musculus with 10 samples.

Results

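The immediate early response genes are 10 named genes, Fos, Fosb, Jun, Junb, Egr1, Egr2, Egr3, Atf3, Ier2 and Dusp1, out of the 55536 genes counted in bladder RNA of C57BL/6 mice. They were chosen by name, and each was followed library by library because handling of a tissue can itself induce them. All 10 were found once by Ensembl identifier, and all 10 passed the filter on low counts, as did 16912 of the 55536 genes over all libraries.

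The series held 4 wild type (WT) libraries, 3 OMD-/- libraries and 3 PRELP-/- libraries of poly(A) RNA, and asked what loss of the secreted proteoglycans osteomodulin (OMD) or PRELP does to bladder gene expression. Both knockouts were constitutive lines in which the protein coding sequence was removed and a β-galactosidase gene was put under the promoter of the lost gene, and no further allele or treatment was given for any group. The genotype label of the PRELP knockouts reads PRLEP-/-. The labels describe homogenised bladder tissue, whereas the study speaks of isolated bladder epithelia and gives other numbers of WT and OMD-/- samples. They give neither age nor sex, nor whether the libraries of a group came from separate mice. All p-values below therefore measure the spread between these libraries, which may be technical in part.

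Immediate early genes are transcribed within minutes of a stimulus without new protein synthesis, from promoters that are already loaded with factors such as SRF, the ternary complex factors and CREB. Fos and Jun proteins pair to form the AP-1 transcription factor, and Egr proteins are zinc-finger factors that bind GC-rich sites. ERK, JNK and p38 kinases drive these genes, and Dusp1, a phosphatase that is itself induced, switches the kinases off again. In urothelium and stroma they respond to growth factors, stretch and injury, and in dissected tissue also to the time and handling before lysis.

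Total counts ranged from 20391437 to 46269079 per library with a median of 22243632.5, WT replicate 1 being the deepest. Prelp was counted 4848 to 15890 times in the WT, 16374 to 19429 times in the OMD-/- and 46 to 74 times in the PRELP-/- libraries. Omd was counted 0, 1, 8 and 12 times in WT, 0 times in all 3 OMD-/- libraries and 5 to 7 times in PRELP-/-, too few to check the OMD-/- labels. The libraries fell into close pairs within groups, WT replicates 1 and 2, WT replicates 3 and 4, OMD-/- replicates 2 and 3 and PRELP-/- replicates 2 and 3, and PRELP-/- replicate 1 stood apart from its group. Summed Y chromosome transcripts (Ddx3y, Eif2s3y, Kdm5d and Uty) were 188, 163, 0 and 0.0442 CPM (read counts scaled to a common library size after TMM normalization) in WT, 18.1, 0.805 and 0.731 CPM in OMD-/- and 120, 18.7 and 18.5 CPM in PRELP-/-, unevenly spread over the groups. Umbrella cell and fibroblast markers were both abundant in every library, at 7778 to 19950 and 8172 to 21410 CPM summed, and transcripts of the male accessory glands were at 0 in all 10.

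In OMD-/- bladders the Egr genes and Jun were higher than in WT. Egr1 was 4.57-fold, Egr2 3.38-fold, Egr3 2.56-fold and Jun 2.35-fold higher, Fosb 1.78-fold and Dusp1 1.63-fold higher, while Junb was slightly lower at 0.81 of WT. Fos, Atf3 and Ier2 did not pass the test. So 7 of 10 members passed edgeR's quasi-likelihood test at an adjusted p under 0.05, 6 higher and 1 lower, where 29.4% of the 16647 genes tested passed, 14.3% higher and 15.1% lower. The median log2 fold change of the members was 0.77, beside 0 for all genes tested.

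The rise was not shared evenly by the OMD-/- libraries. Replicates 2 and 3 stood far above WT for Jun and all 3 Egr genes, and replicate 1 lay close to the WT libraries, being the lowest of its group for 8 of 10 members. The groups did not overlap, with every OMD-/- library above every WT library, for 4 of 10 members (Fosb, Jun, Egr1 and Dusp1), against 38.5% of 16912 genes in either direction. In PRELP-/- bladders 0 of 10 members passed, where 7.29% of 16581 genes did (1.4% higher and 5.89% lower).

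**Figure D1:**
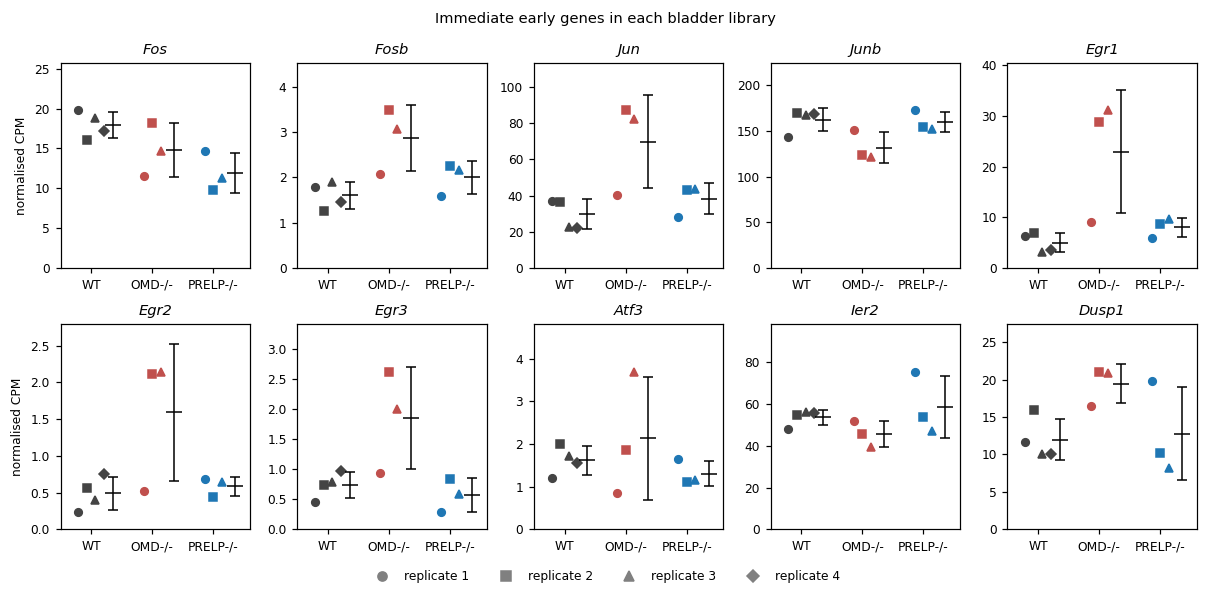
Normalised CPM (vertical axes from 0) of the 10 members in each library, with 1 panel per gene, marker shapes for replicate numbers, and black bars for the mean and SD of each group (n = 4 WT, 3 OMD-/-, 3 PRELP-/-). OMD-/- replicates 2 and 3 lie above all other libraries for Jun, Egr1, Egr2 and Egr3, from 82.0 to 87.0 CPM for Jun and from 28.7 to 31.0 CPM for Egr1, and OMD-/- replicate 1 lies lower, at 40.4 and 8.997 CPM.

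To show what regulatory DNA lies in front of the members with a change in OMD-/-, and of Fos beside them, the bases just before a start site were read from RefSeq on build GRCm38.p6. Of the 10 members 7 had a promoter entry (Fos, Fosb, Jun, Junb, Egr2, Atf3 and Dusp1). Windows of 250 bases before the start were searched on both strands for 6 motifs, and the share of all 32817 such windows that held each was counted. The serum response element core known as the CArG box was present in 1.47% of them. The cyclic AMP response element TGACGTCA was present in 1.55%. Its part TGACGT, which any full element also holds, was present in 6.46% of windows. The AP-1 site TGANTCA was found in 6.75%. The TATA box, searched as TATAAA, was found in 12.4% of windows. The EGR site GCGNGGGCG was found in 4.7%. In the lines that follow, capitals mark the matches, and each sequence runs 5′ to 3′ toward the start.
Egr2, chr10:67537619-67537868, forward strand: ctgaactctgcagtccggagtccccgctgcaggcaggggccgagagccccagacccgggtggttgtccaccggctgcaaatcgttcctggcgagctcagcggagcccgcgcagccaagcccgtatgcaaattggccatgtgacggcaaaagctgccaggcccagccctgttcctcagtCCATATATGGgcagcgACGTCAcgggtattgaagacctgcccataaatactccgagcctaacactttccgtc
Dusp1, chr17:26508520-26508722, reverse strand: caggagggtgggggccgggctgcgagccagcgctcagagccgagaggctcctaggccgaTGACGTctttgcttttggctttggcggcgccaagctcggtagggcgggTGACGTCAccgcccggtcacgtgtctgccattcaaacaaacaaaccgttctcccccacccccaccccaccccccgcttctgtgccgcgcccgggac
Jun, chr4:95052223-95052472, reverse strand: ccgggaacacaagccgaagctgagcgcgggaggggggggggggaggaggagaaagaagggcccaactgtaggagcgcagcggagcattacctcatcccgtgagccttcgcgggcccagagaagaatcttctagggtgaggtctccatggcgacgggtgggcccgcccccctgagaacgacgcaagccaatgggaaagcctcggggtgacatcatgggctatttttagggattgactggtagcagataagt
Fosb, chr7:19310052-19310295, reverse strand: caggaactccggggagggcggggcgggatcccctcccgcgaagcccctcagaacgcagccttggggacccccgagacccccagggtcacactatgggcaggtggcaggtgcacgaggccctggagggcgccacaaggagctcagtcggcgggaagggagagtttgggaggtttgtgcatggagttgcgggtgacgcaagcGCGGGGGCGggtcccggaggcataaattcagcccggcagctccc
Junb, chr8:84978749-84978998, reverse strand: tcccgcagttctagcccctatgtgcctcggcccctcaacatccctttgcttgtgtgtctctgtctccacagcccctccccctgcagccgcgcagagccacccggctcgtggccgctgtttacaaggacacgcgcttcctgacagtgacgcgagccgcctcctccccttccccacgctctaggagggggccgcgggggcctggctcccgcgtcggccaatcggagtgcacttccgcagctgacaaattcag
Fos, chr12:85473640-85473889, forward strand: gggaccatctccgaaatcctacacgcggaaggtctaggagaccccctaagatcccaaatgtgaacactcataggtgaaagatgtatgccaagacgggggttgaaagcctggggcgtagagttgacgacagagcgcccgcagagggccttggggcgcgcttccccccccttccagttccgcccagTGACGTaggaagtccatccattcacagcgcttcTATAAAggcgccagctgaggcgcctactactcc

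The Egr2 window, 1 of 5 listed for this gene, held a CArG box 62 bases before the start and TGACGT on the other strand 50 bases before it, and it lies inside the span of the longest annotated Egr2 transcript. That of Dusp1, printed without the 47 bases next to its start, held the whole TGACGTCA 135 bases before the start and lies inside the span of a longer annotated transcript too. Fos had TGACGT 60 bases and TATAAA 27 bases before the start. Fosb, printed without the 6 bases next to its start, had an EGR site. The windows of Jun and Junb held none of the 6 motifs exactly as spelled. Atf3 had TGACGT 2 bases before its start. These are letter matches, present or absent in these windows, and nothing about binding was measured. Bases further than 250 before the start were not searched, so a motif absent here may lie there. Of the 5 members with a match 3 passed in OMD-/- (Egr2, Fosb and Dusp1), and Jun and Junb, without one, passed as well.

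Fos encodes the founding AP-1 subunit of the Fos family and cannot pair with itself. It read 19.8, 16.1, 18.8 and 17.2 CPM in WT replicates 1 to 4, 11.5, 18.2 and 14.7 CPM in OMD-/- replicates 1 to 3, and 14.7, 9.85 and 11.3 CPM in PRELP-/- replicates 1 to 3. OMD-/- replicate 2 fell among the WT libraries and the other two lay below them, and all 3 PRELP-/- libraries were below all 4 WT libraries. Against WT the log2 fold change was -0.28 (SE 0.156, adjusted p = 0.201) in OMD-/- and -0.62 (SE 0.172, adjusted p = 0.0649) in PRELP-/- by edgeR's quasi-likelihood test. Fos in PRELP-/- had an adjusted p of 0.0252 with DESeq2, 0.000186 with limma-voom and 0.00561 in edgeR without PRELP-/- replicate 1, where the log2 fold change was -0.76.

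Fosb, another Fos family subunit with slower kinetics, read 1.79, 1.27, 1.90 and 1.46 CPM in WT, 2.07, 3.47 and 3.06 CPM in OMD-/-, and 1.59, 2.24 and 2.16 CPM in PRELP-/-. All OMD-/- libraries were above WT, with replicate 1 only just above the highest of them. The log2 fold change was 0.83 (SE 0.269, adjusted p = 0.0382) in OMD-/- and 0.30 (SE 0.262, adjusted p = 0.499) in PRELP-/-.

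Jun is the AP-1 subunit that JNK phosphorylates and that activates its own gene. It read 36.9, 36.7, 22.8 and 22.3 CPM in WT, 40.4, 87.0 and 82.0 CPM in OMD-/-, and 28.3, 42.9 and 43.7 CPM in PRELP-/-. WT itself fell into a higher pair, replicates 1 and 2, and a lower pair, replicates 3 and 4, and OMD-/- replicate 1 was just above the higher pair. Jun was 1.23 log2 units higher in OMD-/- (SE 0.303, adjusted p = 0.0187) and 0.35 units from WT in PRELP-/- (SE 0.254, adjusted p = 0.405). The Jun gene (chromosome 4, 95049034 to 95052222 on build GRCm38) shares 232 exon bases with the antisense transcript Junos, which was itself counted 245 to 577 times per library. As the strand setting of the counting is not given in the sources used here, reads of such overlapping pairs cannot be assigned with certainty.

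Junb, a Jun family subunit that often restrains Jun, went the other way. It read 144, 170, 167 and 169 CPM in WT, 151, 123 and 121 CPM in OMD-/-, and 172, 154 and 152 CPM in PRELP-/-. OMD-/- replicates 2 and 3 lay below every WT library, and OMD-/- replicate 1 lay between WT replicate 1 and the others. It fell by 0.30 on the log2 scale in OMD-/- (SE 0.099, adjusted p = 0.04) and differed by -0.05 in PRELP-/- (SE 0.128, adjusted p = 0.844). Junb shares 173 exon bases with Prdx2 on the other strand, which had a mean of 174 CPM.

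Egr1 encodes the best known Egr factor, induced through SRF and Elk proteins downstream of ERK. It read 6.26, 6.98, 3.23 and 3.495 CPM in WT, 8.997, 28.7 and 31.0 CPM in OMD-/-, and 6.02, 8.61 and 9.60 CPM in PRELP-/-. Every OMD-/- library exceeded every WT library, but replicates 2 and 3 were far above replicate 1, the highest and the lowest being 3.45-fold apart. The log2 fold change of 2.19 in OMD-/- (SE 0.458, adjusted p = 0.0104) was the largest of the 10 members. In PRELP-/- it was 0.67 (SE 0.319, adjusted p = 0.216), with replicates 2 and 3 above all WT libraries and replicate 1 among them.

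Egr2, a factor known from Schwann cells and from lymphocytes, was scarce, with 9 to 17 reads per WT library. It read 0.239, 0.567, 0.398 and 0.752 CPM in WT, 0.518, 2.12 and 2.15 CPM in OMD-/-, and 0.681, 0.441 and 0.643 CPM in PRELP-/-. OMD-/- replicate 1, with 11 reads, lay inside the WT range, and replicates 2 and 3, with 50 and 47 reads, lay above it. Egr2 was 1.76 log2 units higher in OMD-/- (SE 0.536, adjusted p = 0.0306) and 0.28 units in PRELP-/- without passing (SE 0.465, adjusted p = 0.732).

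Egr3, which in lymphocytes overlaps with Egr2 in function, read 0.458, 0.742, 0.797 and 0.973 CPM in WT, 0.942, 2.63 and 2.01 CPM in OMD-/-, and 0.284, 0.841 and 0.597 CPM in PRELP-/-. Again OMD-/- replicate 1 was inside the WT range and replicates 2 and 3 were above it. PRELP-/- replicate 1 rested on 5 reads. The log2 fold change was 1.36 in OMD-/- (SE 0.407, adjusted p = 0.0285) and -0.33 in PRELP-/- (SE 0.45, adjusted p = 0.674). All 3 Egr members thus passed in OMD-/- in the same direction.

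Atf3, a stress-induced partner of Jun that can repress AP-1 targets, read 1.20, 2.01, 1.73 and 1.55 CPM in WT, 0.848, 1.86 and 3.70 CPM in OMD-/-, and 1.65, 1.12 and 1.15 CPM in PRELP-/-. Its 3 OMD-/- libraries were below, inside and above the WT range, a 4.36-fold spread that was the widest of any member in any group. The log2 fold change was 0.42 in OMD-/- (SE 0.425, adjusted p = 0.495, 95% interval -0.52 to 1.36), and -0.23 without OMD-/- replicate 3. In PRELP-/- it was -0.33 (SE 0.291, adjusted p = 0.496).

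Ier2, a small nuclear protein named for its early induction, read 48.1, 54.5, 56.2 and 55.6 CPM in WT, 51.6, 45.6 and 39.5 CPM in OMD-/-, and 75.4, 53.6 and 47.1 CPM in PRELP-/-. OMD-/- replicate 1 lay inside the WT range and the other two below it, whereas PRELP-/- replicate 1 was the highest of all 10 libraries. The log2 fold change was -0.24 in OMD-/- (SE 0.103, adjusted p = 0.109) and 0.11 in PRELP-/- (SE 0.171, adjusted p = 0.718). With limma-voom Ier2 in OMD-/- was at -0.34 with an adjusted p of 0.0106.

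Dusp1, the nuclear phosphatase that inactivates p38, JNK and ERK, read 11.7, 15.9, 10.1 and 10.1 CPM in WT, 16.5, 21.1 and 20.8 CPM in OMD-/-, and 19.9, 10.2 and 8.22 CPM in PRELP-/-. All 3 OMD-/- libraries were above WT, replicate 1 narrowly so, and the SD of log2 CPM in OMD-/-, 0.199, was lower only for Junb and Ier2. The log2 fold change was 0.70 in OMD-/- (SE 0.169, adjusted p = 0.0106). In PRELP-/-, where replicate 1 was high and replicates 2 and 3 low, it was 0.06 (SE 0.306, adjusted p = 0.917, 95% interval -0.63 to 0.76). Dusp1 shares 11 exon bases with Ergic1 on the other strand, a gene with a mean of 543 CPM.

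**Figure D2:**
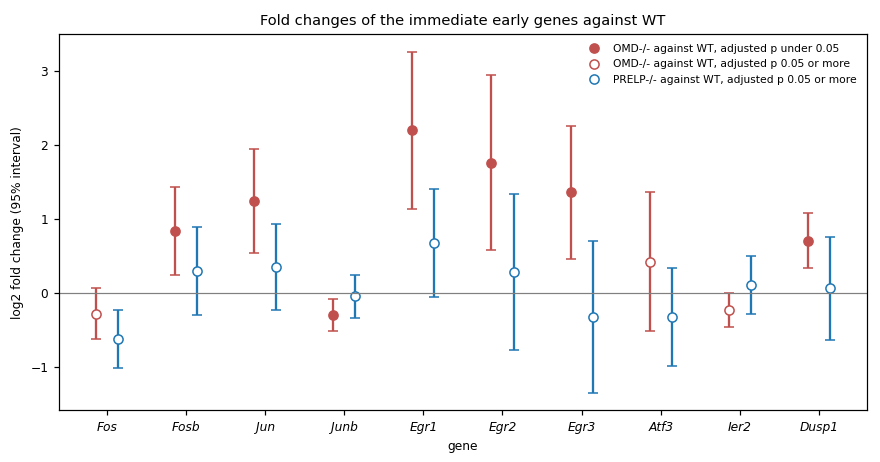
Log2 fold changes (vertical axis) of the 10 members against WT, with 95% intervals, for OMD-/- in red (n = 3 against 4) and PRELP-/- in blue (n = 3 against 4). Filled points passed edgeR's test at an adjusted p under 0.05, as 7 did in OMD-/- and 0 in PRELP-/-, and the widest departures are Egr1 at 2.19 and Egr2 at 1.76 in OMD-/-.

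Per kilobase of exon, which allows levels to be compared between genes, Junb was the most abundant member in WT at 70.5 ± 5.41 CPM per kb (SD, n = 4), above 96.9% of the genes that passed the filter. Ier2 followed at 35.2 ± 2.44, then Jun at 9.30 ± 2.58 and Fos at 7.64 ± 0.702, whose libraries overlapped. Dusp1 stood at 3.61 ± 0.821, Egr1 at 1.11 ± 0.425 and Atf3 at 0.752 ± 0.158, with overlap between Egr1 and Atf3. Fosb, Egr3 and Egr2 were lowest, at 0.257 ± 0.0472, 0.169 ± 0.0485 and 0.144 ± 0.0649, and neighbours among them overlapped.

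In OMD-/- the order of the top 7 was the same, but Jun reached 21.9 ± 8.03 CPM per kb (n = 3) and Egr1 5.11 ± 2.70, so that Egr1 overlapped Dusp1 at 5.88 ± 0.777, which in turn overlapped Fos at 6.29 ± 1.42. Egr1 moved from above 26% of the filtered genes in WT to above 54.9% in OMD-/-, and Jun from 69.8% to 86.1%. In PRELP-/- Egr1 stood above 34.9% and Jun above 74.1%. Junb, and after it Ier2, had the highest level in all 3 groups.

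By the median over members, libraries within groups were further apart than those of a typical gene in OMD-/- and WT, and not in PRELP-/-. The median SD of log2 CPM over the 10 members was 0.496 in OMD-/-, beside 0.154 for all 16912 genes, 0.301 in WT beside 0.193, and 0.323 in PRELP-/- beside 0.368. Egr2, Atf3 and Egr1 lay above 98.5%, 98% and 97.9% of genes by this measure in OMD-/-. There Egr2 rested on 11 to 50 reads per library and Atf3 on 18 to 81, and genes were not matched by level. In WT, Fos, Junb and Ier2 lay above only 31.9%, 25.5% and 21% of genes. Averaged over the 10 members, OMD-/- replicate 1 stood 0.556 log2 units below its group's mean and replicates 2 and 3 stood 0.283 and 0.273 above it, and the other 7 libraries deviated by -0.097 to 0.16.

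**Figure D3:**
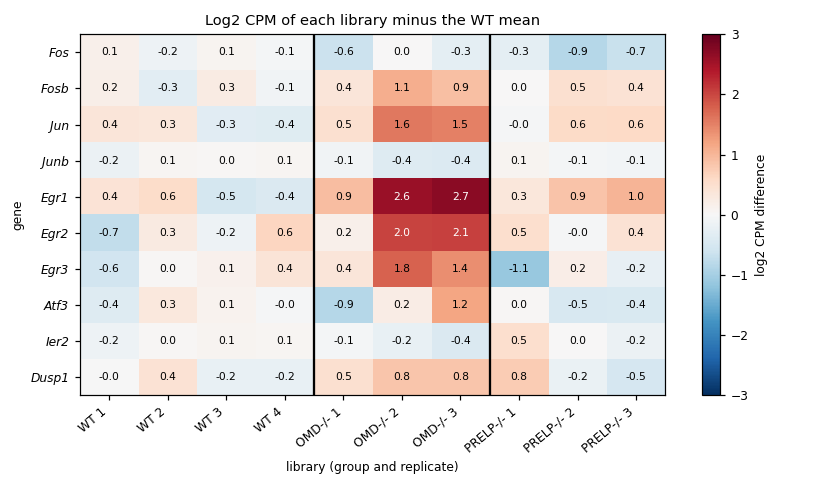
Log2 CPM of each member (rows) in each library (columns) minus the mean of the 4 WT libraries, in colour and printed to 1 decimal, with red for higher and blue for lower. The red block in OMD-/- replicates 2 and 3, at 1.4 to 2.7 for Jun and the Egr genes, is not seen in OMD-/- replicate 1, where Egr1 is highest at 0.9.

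How far the counts rest on single libraries was read by leaving each out. Without OMD-/- replicate 1, 7 members passed, where 4405 of 17298 genes did. Egr1 was then 2.58 and Jun 1.52 log2 units higher than in WT. Without replicate 2 or replicate 3 only 1 member passed, which was Egr1 both times. In these fits 3128 of 17159 and 2951 of 17183 genes passed. Without WT replicate 3 or WT replicate 4, 3 members passed, where 3774 of 16366 and 4171 of 16378 genes did. With OMD-/- replicate 1 as the only OMD-/- library, a setting chosen after seeing the data and in which the lone library is assumed to vary like WT, 0 members passed and Egr1 was 0.84 log2 units above WT (adjusted p = 0.274), where 1023 of all genes passed.

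By gene, the 7 calls differed in how often they held over the 7 settings that left out 1 library. Egr1 passed in 6, missing without WT replicate 4 (adjusted p = 0.0533). Egr3 and Dusp1 passed in 5, Jun and Egr2 in 3, and Fosb and Junb in 2. All 7 kept their direction in each of these settings. With the close pairs of libraries summed into 1 library each, 0 of 10 members and 1658 of all genes passed. With the Y chromosome transcripts as a covariate 7 members passed, as did 6512 of 16647 genes.

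**Figure D4:**
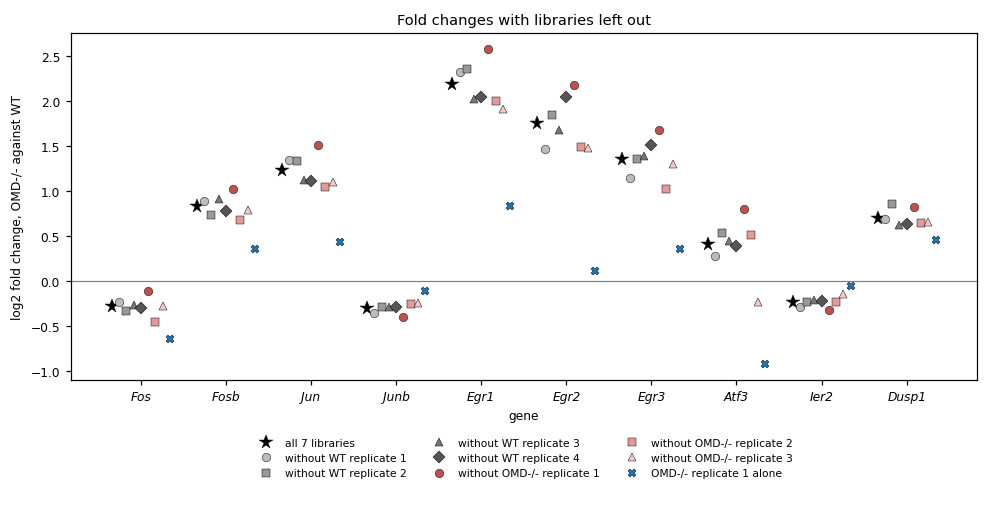
Log2 fold change of OMD-/- against WT (vertical axis) for each member with all 7 libraries (stars), with 1 library left out (grey for WT, red shades for OMD-/-), and with OMD-/- replicate 1 as the only knockout library (blue crosses). The blue crosses lie nearest to 0 for the members that passed, at 0.84 for Egr1 and 0.44 for Jun, and Atf3 is on both sides of 0.

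Markers of other cells moved with the same libraries. Summed leukocyte markers (Ptprc, Cd68, Csf1r, Cd3e, Cd79a, Lyz2 and Itgam) were 260 CPM in OMD-/- replicate 1 and 530 and 548 CPM in replicates 2 and 3, beside 262 to 323 CPM in WT and 163 to 272 CPM in PRELP-/-. In OMD-/- 4 of the 7 passed, all higher, where 29.4% of all genes passed, 14.3% higher. No marker of the list was at 0 in any library. Without OMD-/- replicate 1 all 7 passed, where 4405 of 17298 genes did. Cd79a, a B cell receptor component, read 3.06, 18.1 and 18.3 CPM in OMD-/- and 0.442 to 1.12 CPM in WT, and Ptprc, the pan-leukocyte antigen CD45, read 12.4, 41.3 and 41.5 CPM beside 14.1 to 22.8 CPM. The part of leukocytes in the levels of the members was not tested, and in bulk tissue a change in the share of a cell type and a change in RNA per cell cannot be told apart.

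Fibroblast markers were higher in all 3 OMD-/- libraries, at 17560, 20890 and 21410 CPM summed against 8172 to 9387 CPM in WT. In OMD-/- 5 of 7 passed, all higher, where 29.4% of all genes passed, 14.3% higher. PRELP-/- replicates 2 and 3 had nearly as much, 19480 and 19070 CPM, without such levels of Jun or the Egr genes. Smooth muscle markers were 808 CPM in OMD-/- replicate 1 and 383 and 394 CPM in replicates 2 and 3, and they also separated WT replicates 3 and 4 (1285 and 1127 CPM), which were low in Jun and Egr1, from WT replicates 1 and 2 (326 and 309 CPM). Umbrella cell markers were 13480 CPM in OMD-/- replicate 1 and 9900 and 10090 CPM in the other two. What these shifts contribute to the members' levels was not tested.

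**Figure D5:**
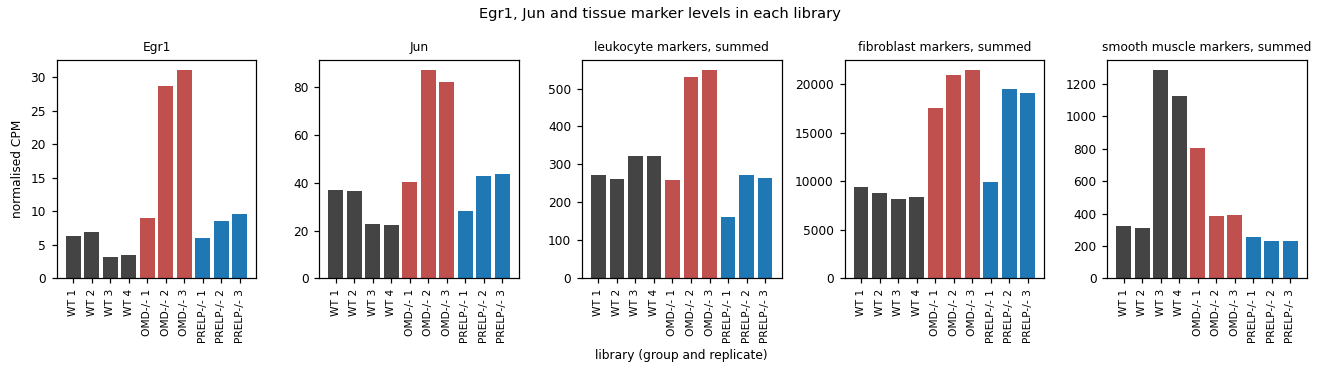
Normalised CPM (vertical axes from 0) of Egr1 and Jun and of summed leukocyte, fibroblast and smooth muscle markers, with 1 bar per library in grey for WT, red for OMD-/- and blue for PRELP-/-. Leukocyte markers follow Egr1 and Jun in OMD-/-, at 260, 530 and 548 CPM, whereas fibroblast markers are high also in OMD-/- replicate 1 and PRELP-/- replicates 2 and 3.

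The genes whose levels followed the members most closely over the 10 libraries, taken as deviations from each group's mean, included Trac, Lcp2, Rasa4, Ighv1-85, Cd79b, Ly9, Sept1, Dnase1l3 and Cd3e, with Pearson r from 0.985 to 0.945. Trac and Cd3e encode parts of the T cell receptor complex, Lcp2 acts in T cell signalling and Cd79b is part of the B cell receptor. This is a description over 10 libraries, in which the gap between OMD-/- replicate 1 and its group carries most of the variation.

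Other immediate early genes gave a mixed picture in OMD-/-. Of 36 listed, 33 were tested and 12 passed, 8 higher and 4 lower, with a median log2 fold change of 0.11, where 29.4% of all genes passed. Ccn1, a matricellular protein and target of the YAP and SRF pathways, had the largest difference and read 2.87, 2.18, 1.02 and 0.841 CPM in WT, 43.1, 106 and 105 CPM in OMD-/- and 4.31, 4.09 and 5.10 CPM in PRELP-/-. Ccn1 was far above WT in OMD-/- replicate 1 too, although below replicates 2 and 3. Its log2 fold change was 5.51 (SE 0.498, adjusted p = 0.000463 by edgeR). Ccn2, its relative, was 1.99 log2 units higher (adjusted p = 0.00118), Klf2 1.20 (adjusted p = 0.00933) and Trib1 0.95 (adjusted p = 0.00081). Klf6, Myc, Ier3 and Rhob rose by 0.30 to 0.49 log2 units. Nfkbiz, an inducible regulator of NF-kB, fell by 2.03 (adjusted p = 0.000218), Plk3 by 0.75, Klf10 by 0.48 and Btg2 by 0.37.

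Of the AP-1 partners outside the members, 12 of 13 were tested, and 0 passed as higher and 2 as lower. Among all genes tested 14.3% passed as higher and 15.1% as lower. Atf4, the factor of the integrated stress response, read 107 to 126 CPM in WT and 35.9, 47.9 and 47.1 CPM in OMD-/-, a fall of 1.40 log2 units (SE 0.116, adjusted p = 2.5e-05) that was shared by OMD-/- replicate 1. Mafg, a small Maf protein, fell by 0.69 (SE 0.085, adjusted p = 0.000283). Of the 2 tested Egr partners, the corepressors Nab1 and Nab2, 0 passed by edgeR, DESeq2 or limma-voom, and 0 had an unadjusted p under 0.05 in edgeR.

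Among 13 genes of the feedback on ERK, 3 passed as higher and 1 as lower in OMD-/-, a share near the 29.4% of all genes that passed. Spry4, an inhibitor of receptor tyrosine kinase signalling, was 1.34 log2 units higher (SE 0.321, adjusted p = 0.0118), at 10.1, 13.2 and 11.5 CPM against 2.52 to 6.59 CPM in WT, so that all 3 OMD-/- libraries were above WT. Spry1 was 0.70 higher (adjusted p = 0.00507) and Spred1 0.37 higher (adjusted p = 0.0298), and Dusp7, a phosphatase of ERK, fell by 0.36 (adjusted p = 0.0177). Of 26 upstream kinases and factors 4 passed as higher and 2 as lower, where 29.4% of all genes passed. Among them Mapk3, Rps6ka1, Elk1 and Elk3 rose by 0.33 to 0.37 and Mapk8 fell by 0.46.

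Lists of stress responses that handling can also set off were read beside these. Each count is to be set against the 29.4% of all genes that passed in OMD-/- by edgeR, 14.3% higher and 15.1% lower. Of 10 heat shock genes only Hspb1 passed in OMD-/- by edgeR, 0.61 log2 units higher (adjusted p = 0.0219). It read 157, 102.5 and 103.5 CPM in OMD-/- replicates 1 to 3, beside 62.8 to 94.3 CPM in WT. Of 8 glucocorticoid-induced genes 0 passed by edgeR, DESeq2 or limma-voom, and 0 had an unadjusted p under 0.05 in edgeR. Among 10 hypoxia-induced genes 2 passed as higher, Ldha (0.41) and Slc2a1 (0.27), and 1 as lower, Vegfa (-0.995). This share is near the 29.4% of all genes that passed. Whether the time or handling before lysis differed between libraries is not given in the sources used here. What handling contributes to the members' levels was not tested.

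In PRELP-/- against WT the members' fold changes lay between -0.62 for Fos and 0.67 for Egr1 on the log2 scale. By edgeR 0 of 10 passed, where 7.29% of 16581 genes did. The count at an unadjusted p under 0.05 was 1 (Fos), and the median log2 fold change was 0.09, beside 0.02 for all genes. DESeq2 called 1 member, where 2542 of all genes passed. Limma-voom called 3, which were Fos, lower, and Jun and Egr1, higher, where 6963 of 16581 genes passed. For 1 of 10 members, Fos, the groups did not overlap, against 29.7% of 16912 genes. PRELP-/- replicate 1 was the highest of its group for 6 members and the lowest for 4, and without it 1 member (Fos) passed. In this comparison Atf4 (-1.80, adjusted p = 0.000301), Nfkbiz (-2.88, adjusted p = 0.000441), Gadd45g (-1.25, adjusted p = 0.0118) and Vegfa (-1.08, adjusted p = 0.00292) fell, and 0 genes of the ERK feedback, upstream, heat shock and glucocorticoid lists passed by edgeR. At an unadjusted p under 0.05 these lists had 1, 2, 2 and 0 genes, of 13, 26, 10 and 8 tested. DESeq2 called 0, 2, 2 and 0 and limma-voom 3, 10, 3 and 0, to be read beside the all-gene counts just given. Both comparisons share the 4 WT libraries, so their values are not independent.

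Compared directly, 0 of 10 members passed between PRELP-/- and OMD-/-, each with an adjusted p of 0.69 by edgeR. The log2 differences, PRELP-/- minus OMD-/-, were -1.66 for Egr3, -1.51 for Egr1, -1.46 for Egr2 and -0.87 for Jun. Here 0.00633% of 15805 genes passed, the 1 gene being Prelp. At an unadjusted p under 0.05 there were 4 members, the ones just named. The 95% intervals were wide, from -2.61 to -0.40 for Egr1 and from -1.65 to -0.09 for Jun. With the Y chromosome transcripts as a covariate the estimates were 0.03 for Egr1 and 0.13 for Jun, and with OMD-/- replicate 1 as the only OMD-/- library it was 0.16 for Egr2. Egr3 was lower and Junb higher in every PRELP-/- library than in every OMD-/- library, 2 of 10 members against 14.8% of genes. Limma-voom with sample quality weights called 7 members and 1010 genes, DESeq2 0 members and 87 genes, and a fit with the replicate number as a block 0 members and 43 genes. So 7 members passed in OMD-/- against WT and 0 in PRELP-/-, while the difference between the knockouts passed for 0 of them.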

How the data were processed

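The authors made strand-specific poly(A) libraries with molecular identifiers in the adaptors and deposited raw read counts of 55536 genes per library, counted with featureCounts without normalization. The count file headers name HISAT2, whereas the submitters' processing notes list bcl2fastq, STAR 2.5.2b, featureCounts and DESeq2 with the builds GRCm38 and hg38. The aligner's settings, how strand was treated in counting and whether the molecular identifiers were used are not given in the sources used here. Deposited tables of DESeq2 comparisons (mean counts, log2 fold changes and p-values) were not used.

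All 55536 identifiers were matched to GENCODE vM21 (build GRCm38). The 2 groups of a comparison were fitted by themselves in edgeR 4.0.16 (R 4.3.3) with TMM normalization, filterByExpr, robust quasi-likelihood dispersion, the two-sided quasi-likelihood test and Benjamini-Hochberg adjustment over all tested genes at 0.05. Levels are TMM-normalised counts scaled to library size (CPM), and log2 CPM used a prior count of 2. The alternatives were RLE scaling, DESeq2 1.42.0, limma-voom (limma 3.58.1) with sample quality weights, no filter, a joint fit, a replicate block, a Y chromosome covariate, summed close libraries, subsets of WT and single libraries left out. The main fit was tested on simulated counts. Within each group, every pair of libraries differed beyond counting noise, so none was merged. That does not show that they came from separate mice. The chi-square of counts per gene was 2.983 between OMD-/- replicates 2 and 3, beside 24.51 and 22.41 for replicate 1 with each. Between PRELP-/- replicates 2 and 3 it was 3.35, beside 202.6 and 198.7 for replicate 1 with each. Depth limits the scarce members most, Egr2 and Egr3 resting on 5 to 62 reads per library.

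The members and all lists were chosen with earlier results of these data known. All 10 members are given, with the list genes that passed against WT and the 10 genes closest to the members, except for 2 genes that are not reported here. Tissue markers are given as summed CPM. Same-numbered OMD-/- and PRELP-/- libraries had r = 0.303, 0.181 and 0.148 between their deviations from the group mean over all genes. For WT with either knockout r was -0.1 to 0.137. Libraries with different numbers were not compared, so these values cannot show pairing. The main fits were unpaired, and the replicate block was an alternative only.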

Additional observations from a re-analysis of the deposited data

Results flagged for a closer look

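Junb in WT had 1 library far from the others. WT replicate 1, the deepest library, read 144 CPM and the other 3 read 167 to 170 CPM, and its gap to the nearest of them was 0.904 of the whole range of the group. Chance alone marks about 1 in 20 groups in this way, and 10 members were looked at in the 4 WT libraries. Without WT replicate 1 the log2 fold change of Junb in OMD-/- was -0.36 (adjusted p = 0.0255 by edgeR's quasi-likelihood test).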

How the results depend on the processing

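The 7 members that passed in OMD-/- kept their direction under all 18 alternatives, but not their calls. The count passing was 1 to 7 with single libraries left out, 3 in a joint fit of all 10 libraries, 3 with a replicate block, 3 with WT replicates 1 and 2 as the only WT libraries, 4 with WT replicates 3 and 4, 8 with limma-voom, 5 without the filter, 0 with close libraries summed and 0 with OMD-/- replicate 1 alone. Among all genes the OMD-/- count was 2951 to 4850 with single libraries left out, 2485 in the joint fit, 1658 with close libraries summed and 1023 with OMD-/- replicate 1 alone. Same-numbered WT and knockout libraries had r of -0.1 to 0.137 between their deviations. Libraries with different numbers were not compared, so whether the block shares more than a number is not known.

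In PRELP-/- 0 to 1 members passed with single libraries left out, 1 with DESeq2, 3 with limma-voom and 1 with PRELP-/- replicate 1 alone. All genes passing numbered 475 to 3807 with single libraries left out, 2542 with DESeq2, 6963 with limma-voom, 2485 in the joint fit, 115 with the replicate block, 13 with close libraries summed, 119 and 453 with either pair of WT libraries, and 6884 with PRELP-/- replicate 1 alone. Between the knockouts 7 members passed with limma-voom and 2 with PRELP-/- replicate 1 alone, and all genes numbered 1 to 36 with single libraries left out, 87 with DESeq2, 1010 with limma-voom, 5 without the filter, 3 in the joint fit, 43 with the replicate block, 4 with the Y chromosome covariate, 0 with close libraries summed, 0 with OMD-/- replicate 1 alone and 8095 with PRELP-/- replicate 1 alone. The causes were not tested. In fits with a lone library it is assumed to vary like the other group.

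Of 520 member log2 fold changes under the alternatives, 23 changed sign. In OMD-/- against WT these were Atf3 without OMD-/- replicate 3 (-0.23, range with single libraries left out -0.23 to 0.80) and with OMD-/- replicate 1 alone (-0.92). In PRELP-/- against WT they were, with PRELP-/- replicate 1 alone, Fosb (-0.051), Jun (-0.10), Junb (0.054) and Atf3 (0.0034), Ier2 with limma-voom (-0.11) and without PRELP-/- replicate 1 (-0.078, range -0.078 to 0.24), and Dusp1 with limma-voom (-0.25), the replicate block (-0.079), the Y chromosome covariate (-0.070), without WT replicate 3 (-0.01), without WT replicate 4 (-0.01), without PRELP-/- replicate 1 (-0.36, range -0.36 to 0.30) and with WT replicates 1 and 2 only (-0.14). Between the knockouts they were, with the Y chromosome covariate, Fosb (0.12), Jun (0.13), Egr1 (0.032), Atf3 (0.28) and Ier2 (-0.059), and with OMD-/- replicate 1 alone Fos (0.037), Egr2 (0.16) and Atf3 (0.60). The alternatives with 1 lone library were added after seeing the data. With a prior count of 5, 9 of the 10 genes closest to the members were the same.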

Other observations

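Other tissue markers differed between libraries as well. Summed endothelial markers were 371 and 384 CPM in WT replicates 1 and 2, 172 and 158 CPM in WT replicates 3 and 4, 442 to 519 CPM in OMD-/- and 296 to 514 CPM in PRELP-/-. Basal urothelial markers were 2466 to 3161 CPM in WT, 4468 CPM in OMD-/- replicate 1, 3273 and 3282 CPM in OMD-/- replicates 2 and 3, and 3688 to 4962 CPM in PRELP-/-. Nerve markers were 8.23 to 15.0 CPM in all libraries, and adipose markers at most 0.619 CPM. Skeletal muscle markers were 14.0 and 13.4 CPM in WT replicates 3 and 4 and at most 1.13 CPM in the other 8 libraries. Prelp itself was higher in OMD-/- than in WT, at 771 to 825 CPM against 215 to 317 CPM (1.59 log2 units, adjusted p = 1.3e-05 by edgeR's quasi-likelihood test).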
